A study of Mus musculus with 3 samples.

Results

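The proteasome subunit genes were taken as the protein-coding genes of the RefSeq table for mm10 whose symbols join Psma, Psmb, Psmc or Psmd to a number. The rule found 39 genes among 21887 protein-coding genes. The data were 3 CUT&Tag libraries of a single group, made from bone marrow LSK cells of mice. LSK cells lack lineage markers and carry Sca-1 and Kit on their surface; blood stem cells and multipotent progenitors are among them. By the series design the mice were knock-ins with 3xFlag joined to the N-terminal end of Bcl11a, which encodes a zinc finger repressor of transcription, while each sample's genotype label reads wildtype. CUT&Tag uses an antibody to bring a transposase to a protein on chromatin, so that nearby DNA is cut and tagged. Age, sex and pooling of the mice are not given in the sources used here, nor is it said that the libraries came from separate animals, so each SD measures only the spread between libraries. No untagged library was analysed here, and peaks of the tagged protein were not told apart from open chromatin cut without it.

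The 26S proteasome degrades proteins marked with ubiquitin. Its barrel-shaped core is built of outer rings of alpha subunits, which gate the channel, and inner rings of beta subunits, some of which cut peptide bonds. A regulatory cap sits on the barrel: its base holds a ring of ATPases that unfold substrates, and its lid removes ubiquitin. Interferon-induced beta subunits can replace the constitutive catalytic ones, which gives the immunoproteasome that makes peptides for MHC class I. Blood stem cells are known to keep protein synthesis low and to be sensitive to disturbed protein quality.

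Peak lists give no expression, so the LSK label could only be set beside peaks at marker genes. Kit had a peak of every library at its start, with fold enrichments of 5.60, 5.97 and 6.11 in libraries 1, 2 and 3. Ly6a, the Sca-1 gene, had a peak at an end in 1 library. Of 7 lineage marker genes matched, 0 had a reproducible region, and only Cd3e had a peak at an end, in 1 library. The lists held 38731, 36459 and 43462 peaks on the autosomes, X and Y. The local background at its lowest was 1.07, 1.41 and 1.95 fragments per base, so library 3 was the deepest and library 1 the shallowest by this measure.

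Most proteasome genes carried a peak at an end in all the libraries. Overlapping peaks were joined into regions, a region with a peak of each library is called reproducible, and a gene is called occupied where such a region came within 1 kb of an outer end. By this rule 30 of 39 proteasome genes (76.9%) were occupied, where the share of all protein-coding genes was 45.2%. In libraries 1, 2 and 3 taken alone, 31, 31 and 35 of the 39 had a peak at an end, beside 50%, 52.5% and 53.9% of all protein-coding genes. With a peak of every library directly at an end there were 29 members, and Psmb10 was added only because its peaks joined. A further 3 members had peaks of 2 libraries (Psmb4, Psmb6 and Psmd2), beside 6.57% of all protein-coding genes. Psmb7, Psmb10, Psmb11 and Psmd6 had a peak of 1 library, beside 7.3%. The remaining 3, Psma6, Psma8 and Psmd10, had no peak at either end, beside 40.8%. The share in these lists was known when the genes were chosen, and no test was run on it.

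The strength of the occupied members relative to other occupied genes depended on the measure: it was close by fold enrichment and lower by pileup and by −log10 q. Fold enrichment is the authors' value for how far the summit stands above the local background, a ratio, and a region's value in a library is that of its strongest peak there. The median over occupied members was 7.05, 8.05 and 8.07 in libraries 1, 2 and 3, beside 7.39, 7.66 and 7.15 over all occupied protein-coding genes. On the log2 scale the members' median over the 3-library means was 0.05 above that of all occupied genes, and the difference was -0.07, 0.07 and 0.17 in single libraries, a spread (SD 0.12, n = 3) larger than the difference. Summit pileup, the number of fragments over the summit, pointed below the other genes in every library. Its median was 20, 25 and 32 fragments for members and 24, 32 and 38 for all occupied genes. With pileup over the library's background in place of fold enrichment, the log2 difference of medians was -0.38, and with −log10 q it was -0.26. Of the 30 occupied members, 3 stood among the top 10% of all occupied genes by mean fold enrichment, 6 among the top 25% and 17 among the top 50%. Pileup was higher in library 3 than in library 1 for 29 of the 30, in the order of the backgrounds, whereas fold enrichment was higher in library 3 for 21. These counts were not taken over all occupied genes. The medians over all occupied genes in libraries 1 and 3 were 24 and 38 fragments, and 7.39 and 7.15 in fold enrichment.

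**Figure D1:**
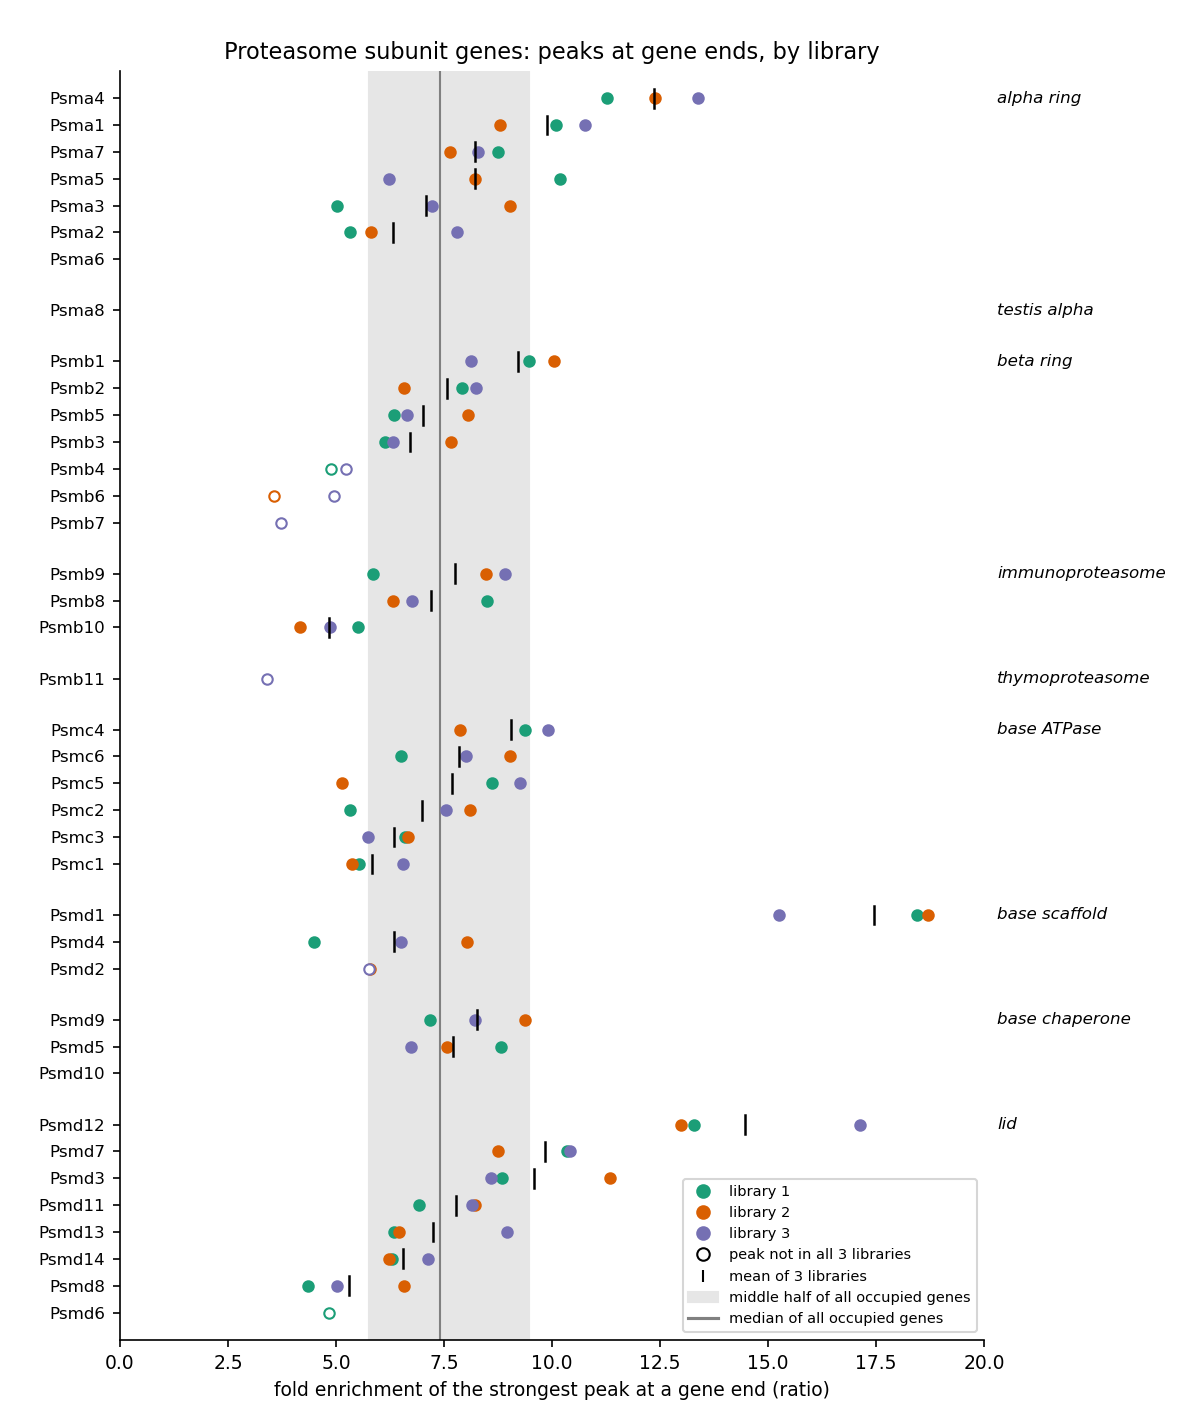
Fold enrichment of the strongest peak at a gene end (x axis, a ratio) for each of the 39 proteasome genes (rows, grouped by role), with a dot per library, a bar at the mean of 3 libraries, and open dots where the peaks were not in all 3 libraries. Most means of occupied members lie in the grey band, the middle range of all occupied genes from 5.77 to 9.47. Those of Psmd1 (17.5), Psmd12 (14.5), Psma4 (12.4), Psma1 (9.88), Psmd7 (9.84) and Psmd3 (9.59) lie to its right, those of Psmd8 (5.31) and Psmb10 (4.84) to its left, and Psma6, Psma8 and Psmd10 have no dot.

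Where a strand was given, nearly all occupied members had their region at the start end alone, the outer end on the side of the start. The start end of Psma3 lies away from its RefSeq start, and the stronger end region of Psmb8 lies beyond its finish, as given below. The RefSeq promoter table gave strand and start for 32 of the 39 members. Psma8, Psmb1, Psmb2, Psmb7, Psmc3, Psmd3 and Psmd7 had no entry there. Of 25 occupied members with a strand, 24 were occupied at the start end alone, 0 at the finish alone and 1, Psmb8, at both. Over all occupied protein-coding genes with a strand, the start end alone held the region in 86.8%. A reproducible region came within 1 kb of a RefSeq start in 26 of the 32 members (81.2%), beside 46.9% of 17492 protein-coding genes, and covered the start itself in 25 (78.1%), beside 42.5%. The 27 occupied starts of these members had their summits at a median of -3 bp from the start, with quartiles of -126 and 106 bp. Over 9739 occupied starts of all protein-coding genes the median was -24 bp and the quartiles were -176 and 122 bp. Summits lay within 250 bp of the start for 22 of the 27 member starts (81.5%) and for 70.6% of all occupied starts.

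**Figure D2:**
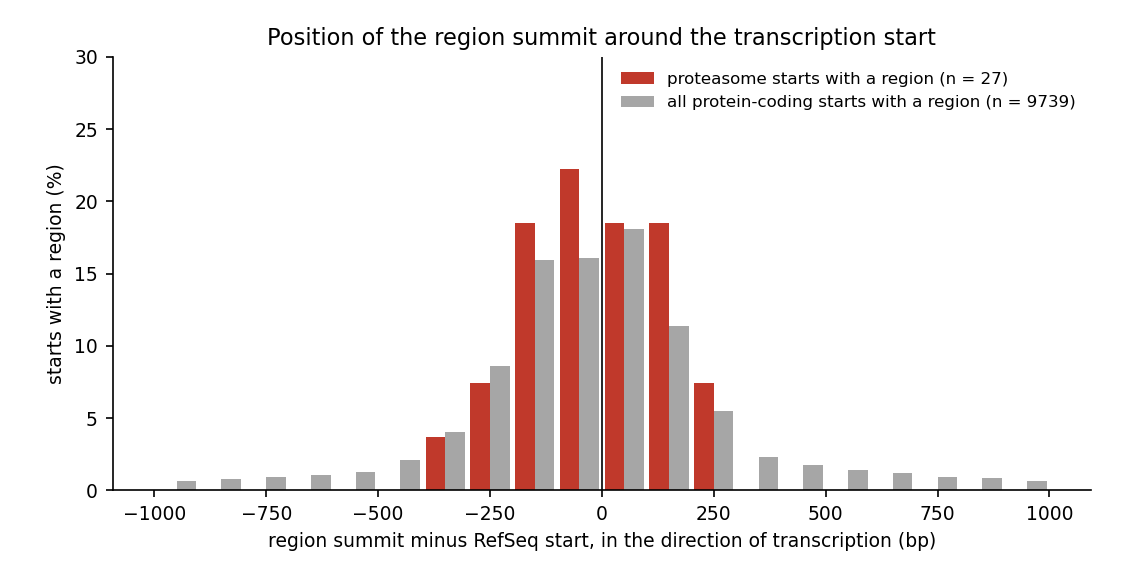
Share of occupied RefSeq starts (y axis, %) by the distance from the start to the region summit in the direction of transcription (x axis, 100 bp bins). Proteasome starts (red, n = 27) and all protein-coding starts (grey, n = 9739) both pile up around 0; the Psmb10 summit, 1341 bp downstream, lies outside the range drawn.

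Promoter sequences are shown for the starts on which the results turn. Psmd1 and Psmd12 carried the strongest regions, Psma6 has a start with a region and a start without, and Psmb5, Psmb8 and Psmb9 are the constitutive and interferon-induced genes set side by side below. Each is the 250 bases before the start, 5′ to 3′ on the gene's strand, from RefSeq on GRCm38.p6, the assembly behind mm10. Capitals mark matches on either strand to CCAAT, the NF-Y box; TGACNNNGC, the antioxidant response element core read by Nfe2l1; CCGGAA, an ETS core; TGACCA, the motif known for BCL11A; the interferon-stimulated response element; and TTCNNNGAA, a STAT site. The Psmd1 sequence holds none of them.
Psmd1 (chr1:86064369-86064618, plus strand): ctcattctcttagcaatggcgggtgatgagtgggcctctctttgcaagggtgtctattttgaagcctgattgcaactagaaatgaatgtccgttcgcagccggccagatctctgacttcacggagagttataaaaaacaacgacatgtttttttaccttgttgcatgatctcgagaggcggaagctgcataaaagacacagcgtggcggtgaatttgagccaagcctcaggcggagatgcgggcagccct
Psmd12 (chr11:107479278-107479527, plus strand): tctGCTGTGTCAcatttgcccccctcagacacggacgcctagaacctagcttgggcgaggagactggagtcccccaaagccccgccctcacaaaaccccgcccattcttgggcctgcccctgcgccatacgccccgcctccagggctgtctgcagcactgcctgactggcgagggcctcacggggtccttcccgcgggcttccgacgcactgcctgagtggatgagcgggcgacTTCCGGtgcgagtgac
Psma6 outer start (chr12:55383972-55384221, plus strand): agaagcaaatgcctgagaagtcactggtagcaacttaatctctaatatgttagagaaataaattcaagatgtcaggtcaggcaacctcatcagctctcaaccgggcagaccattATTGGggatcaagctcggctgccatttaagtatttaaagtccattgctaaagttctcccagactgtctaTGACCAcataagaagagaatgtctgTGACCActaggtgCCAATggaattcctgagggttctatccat
Psma6 inner start (chr12:55398575-55398824, plus strand): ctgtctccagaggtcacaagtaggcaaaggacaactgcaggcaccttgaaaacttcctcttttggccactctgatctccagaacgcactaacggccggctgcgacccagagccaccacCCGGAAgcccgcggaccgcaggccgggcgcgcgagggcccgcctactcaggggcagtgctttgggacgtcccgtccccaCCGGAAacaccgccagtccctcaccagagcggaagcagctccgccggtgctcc
Psmb5 (chr14:54617996-54618245, minus strand): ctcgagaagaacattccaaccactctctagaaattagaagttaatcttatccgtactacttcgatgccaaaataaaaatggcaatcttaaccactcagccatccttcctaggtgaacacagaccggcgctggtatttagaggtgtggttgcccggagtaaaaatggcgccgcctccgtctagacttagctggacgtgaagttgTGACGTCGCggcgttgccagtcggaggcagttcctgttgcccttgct
Psmb8 (chr17:34197945-34198194, plus strand): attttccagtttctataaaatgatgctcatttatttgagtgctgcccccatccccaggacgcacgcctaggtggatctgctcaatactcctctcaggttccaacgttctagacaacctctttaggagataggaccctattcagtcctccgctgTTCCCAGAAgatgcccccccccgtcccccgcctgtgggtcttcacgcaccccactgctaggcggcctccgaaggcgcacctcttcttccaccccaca
Psmb9 (chr17:34187331-34187580, minus strand): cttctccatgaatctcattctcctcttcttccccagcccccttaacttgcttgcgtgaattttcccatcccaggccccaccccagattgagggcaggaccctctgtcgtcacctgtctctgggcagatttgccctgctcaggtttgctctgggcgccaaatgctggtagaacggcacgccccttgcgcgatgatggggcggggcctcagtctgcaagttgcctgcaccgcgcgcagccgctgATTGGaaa

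The ETS core was more frequent in member promoters, occupied or not, than in promoters at large and than in all promoters with an occupied start. The motifs were searched on both strands of the 300-base windows from 250 bases before to 50 after the start, 34 windows for members and 21263 for all protein-coding genes. CCGGAA stood in 16 of the 34 member windows (47.1%), beside 18.7% of all windows and 29.7% of all windows with an occupied start. Among the 16 were those of Psmb4, Psmd2, Psmd6 and Psmd10, whose starts were not occupied, and the rest had an occupied start. The palindromic motif bound by nuclear respiratory factor 1 stood in 6 (17.6%), beside 6.38% of all windows and 11.4% of windows with an occupied start. CCAAT stood in 13 (38.2%), beside 38.2%, and TGACNNNGC in 5 (14.7%), beside 12.98%. These 5 were the windows of Psmb5, Psmb6, Psmc6, Psmd9 and Psmd12. The longer MAF recognition element stood in 0 windows of members and 0.0941% of all windows. TGACCA stood in 2 member windows (5.88%), those of Psmd13 and of the outer Psma6 start, beside 12.5% of all windows and 11.2% of windows with an occupied start. The interferon-stimulated response element and the STAT site stood in 3 and 2 member windows (8.82% and 5.88%, beside 3.35% and 7.69%). Of these, only the TTCNNNGAA match of Psmb8 lay at an immunoproteasome gene. The other motifs searched were GGGCGG (19 member windows), TGTGGT (5), TATAAA (4), CACGTG (3), AAGATGGC (3) and TGACGTCA (0), at 55.9%, 14.7%, 11.8%, 8.82%, 8.82% and 0% of member windows, beside 46.2%, 15.0%, 12.6%, 7.84%, 3.05% and 2.23% of all windows. Of windows with an occupied start, 69.3% held GGGCGG and 5.74% held TATAAA, so that the member share of GGGCGG lay above that of all windows and below that of occupied ones. A window was counted once for each motif, whatever the number or strand of its matches. A match is a stretch of letters, and binding of these factors was not measured.

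CpG content moved with occupancy across the genome. Member promoters held more CpGs than promoters at large, and those with an occupied start held fewer than occupied promoters at large. The median CpG count per 300-base window was 19 for members and 13 for all protein-coding genes, 20 for member windows with an occupied start, beside 23 for all such windows, and 12 for member windows without, beside 5 for all such windows. The median GC share of windows with an occupied start was 59% for members and 62.7% for all protein-coding genes. In the windows of all genes with 25 to 67 CpGs, 79.5% had an occupied start, beside 7 of 7 member windows. In those with 14 to 24 the share was 69.7%, beside 15 of 18 member windows. In those with 5 to 13 it was 32.7%, beside 4 of 6, and in those with 0 to 4 it was 6.61%, beside 1 of 3, the window of Psmb10. The part of CpG content in the members' share of occupied genes was not tested.

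**Figure D3:**
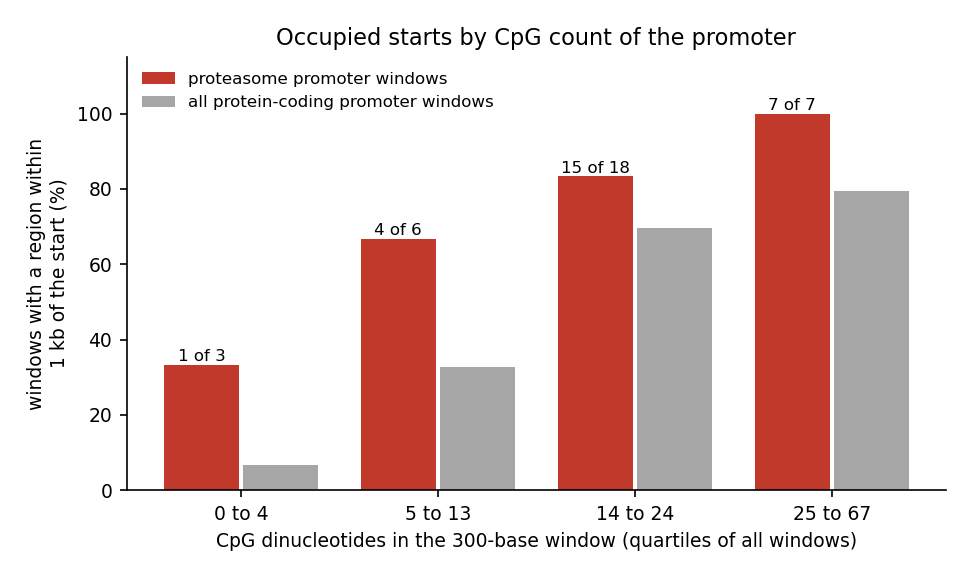
Share of promoter windows with a reproducible region within 1 kb of the start (y axis, %) in quartiles of the CpG count per 300-base window (x axis), for proteasome genes (red, with counts) and all protein-coding genes (grey). The grey bars climb with CpG count to 79.5%, and 25 of the 34 member windows fall in the upper quartiles.

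Among the constitutive core genes, 10 of 14 (71.4%) were occupied, beside 45.2% of all protein-coding genes. The alpha ring had 6 of 7 and the beta ring 4 of 7. Psma4, whose product holds the gate of the channel closed, had fold enrichments of 11.3, 12.4 and 13.4 in libraries 1, 2 and 3 and pileups of 35, 44 and 58 fragments. Its region (chr9:54950373-54951293, mm10) had a mean of 12.4 ± 1.05 (SD, n = 3), above 93.6% of occupied protein-coding genes, and also lay within 1 kb of ends of Hykk and AY074887. Psma1, another alpha subunit, followed with 10.1, 8.80 and 10.8 at its start. Psma7 had 8.74, 7.63 and 8.30, Psma5 10.2, 8.22 and 6.24, and Psma2 5.32, 5.82 and 7.81. Psma5 was highest in library 1 and Psma2 in library 3, and the range of Psma5 overlapped those of Psma1, Psma2 and Psma7.

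Psma3 and Psma6, both alpha ring genes, had their strongest regions at starts inside the annotated gene. The outer end of Psma3 had a region with 5.03, 9.02 and 7.23 in libraries 1, 2 and 3 (mean 7.09 ± 1.998, SD, n = 3). Its RefSeq promoter start lies farther in, and the region over that start (chr12:70974506-70975150) had 12.5, 16.4 and 11.0, a mean of 13.3 ± 2.79 (SD, n = 3). The inner region was the stronger of the pair in every library. Psma6 has an outer start at 55384222 on chromosome 12, where no library had a peak within 1 kb. Its inner start at 55398825 was covered by a region (chr12:55398296-55399248) with 13.95, 13.2 and 10.7, a mean of 12.6 ± 1.69 (SD, n = 3). The outer start had 3 CpGs in its window and the TGACCA matches shown above, and the inner start had 22 CpGs and the CCGGAA matches. Counting RefSeq starts as well as outer ends, a choice made after seeing the data, 31 of the 39 members were occupied, beside 48.2% of all protein-coding genes.

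By the rule of 3 libraries, the beta ring was the part of the constitutive proteasome with most genes short of a reproducible region. Its share, 4 of 7 (57.1%), stood beside 45.2% of all protein-coding genes. Of its other genes, 2 had peaks of 2 libraries at an end and 1 had a peak of 1 library. Psmb1, a non-catalytic beta subunit, had fold enrichments of 9.48, 10.04 and 8.13 in libraries 1, 2 and 3. Psmb2 had 7.92, 6.58 and 8.23, and Psmb3 had 6.14, 7.65 and 6.32 with pileups of 37, 65 and 83 fragments. Psmb4, which completes the ring during assembly, had a peak over its start in library 1 (4.89, 10 fragments) and library 3 (5.24, 17 fragments) and none in library 2. All 7 beta ring genes had a peak at an end in library 3, the deepest, and 5 had one in each of libraries 1 and 2. No test of beta against alpha or of core against lid and base was run.

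The genes for the catalytic subunits were compared with their interferon-induced replacements. Psmb5, the constitutive chymotrypsin-like subunit, had 6.35, 8.07 and 6.64 in libraries 1, 2 and 3 over its start (chr14:54617700-54618384), with pileups of 15, 23 and 27 fragments. Psmb6, the caspase-like subunit, had no peak in library 1 and 3.56 and 4.95 in libraries 2 and 3, with summits of 8 and 17 fragments. Psmb7, the trypsin-like subunit, had a peak only in library 3, at 3.73 and 10 fragments. All 3 interferon-induced genes were occupied by the rule, against 1 of these 3 constitutive ones, beside 45.2% of all protein-coding genes.

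Psmb9, which takes the place of Psmb6, shares its upstream region with the peptide transporter gene Tap1, which starts 226 bp away on the other strand. The region between them (chr17:34186454-34188060) had fold enrichments of 5.85, 8.47 and 8.91 in libraries 1, 2 and 3 and pileups of 21, 39 and 57 fragments, with a mean of 7.75 ± 1.65 (SD, n = 3). Library 1 was the lowest in both measures. Psmb9 therefore exceeded Psmb6 in each of libraries 2 and 3, by 4.91 and 3.96 in fold enrichment, and library 1 had a peak at Psmb9 only.

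Psmb8, which takes the place of Psmb5, was the only member with a region at each end, a state found in 3.95% of all protein-coding genes. Over its start (chr17:34198099-34198561) the fold enrichments were 3.12, 2.30 and 2.08 in libraries 1, 2 and 3, with pileups of 28, 22 and 37 fragments and −log10 q of 5.04, 1.92 and 2.71. The mean, 2.50 ± 0.54 (SD, n = 3), was below that of every other region at a member's end. The region beyond its finish (chr17:34201936-34203407) had 8.50, 6.32 and 6.77 and pileups of 78, 70 and 127 fragments. It exceeded the start region in every library. Its near edge lay 482 bp past the annotated end of Psmb8 and its far edge 1072 bp short of the lower-coordinate end of the transporter gene Tap2. A further region inside Tap2, 8978 bp past the end of Psmb8, had 10.5, 10.1 and 8.83. Compared at its start, Psmb8 lay below Psmb5 in fold enrichment in all 3 libraries, while its pileup was higher than that of Psmb5 in libraries 1 and 3 and lower in library 2. Taken by its stronger end, Psmb8 minus Psmb5 was 2.14, -1.74 and 0.13 in fold enrichment, an order that differed between libraries, while its pileup was the higher in every library.

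Psmb10, which takes the place of Psmb7, was at the limit of the rule. Its region (chr8:105936736-105937411) had 5.50, 4.16 and 4.85 in libraries 1, 2 and 3, with pileups of 20, 17 and 31 fragments. The mean, 4.84 ± 0.67 (SD, n = 3), was the lowest among occupied members. The summit lay inside the gene, 1341 bp from the start and 1323 bp from the finish, and the edge came to 981 bp from the start only through the peak of library 3. Without library 3, with the summit as the position, or with a 250 bp window, Psmb10 was not occupied and 2 of the 3 interferon-induced genes were.

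**Figure D4:**
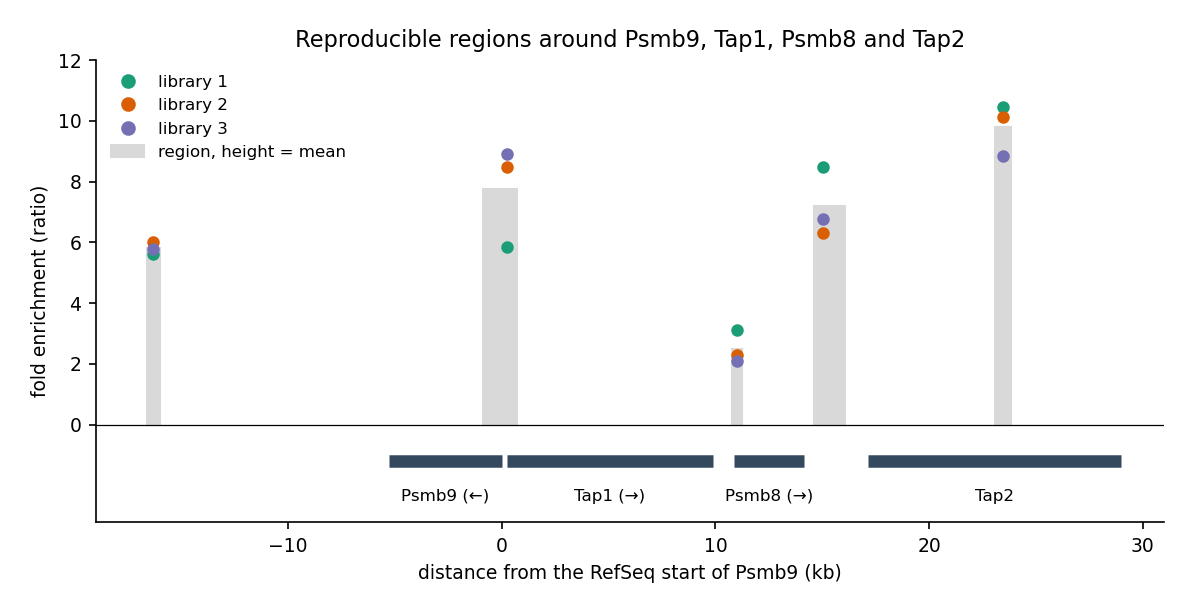
Reproducible regions around Psmb9 and Psmb8 (grey bars, height at the mean fold enrichment; dots, libraries 1 to 3) by distance from the Psmb9 start (x axis, kb), with genes drawn below and arrows for strand where it was given. The Psmb9 and Tap1 region (mean 7.75) and the region past the end of Psmb8 (7.20) stand above the region at the Psmb8 start (2.50).

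The gene variants used in other tissues, Psma8 and Psmb11, had no reproducible region at an end, where 45.2% of all protein-coding genes were occupied. The constitutive core genes Psma6, Psmb4, Psmb6 and Psmb7 also had none at an outer end. Psma8, the alpha subunit of germ cells, had no peak at either end in any library. Psmb11, the beta subunit of thymic cortical epithelium, had a peak only in library 3, at 3.40 and 14 fragments, 660 bp past its finish. Psmb11 lies beside Psmb5, and the region at the Psmb5 start was 6926 bp upstream of it.

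Base genes were occupied in 8 of 9 cases (88.9%), including 6 of 6 ATPases, beside 45.2% of all protein-coding genes. Psmd1, a large scaffold of the base, had the strongest region of the family, with fold enrichments of 18.4, 18.7 and 15.2 and pileups of 77, 108 and 117 fragments in libraries 1, 2 and 3. Its region (chr1:86064286-86065057) had a mean of 17.5 ± 1.92 (SD, n = 3), rank 25 of 9902 occupied genes, and the summit lay -3 bp from the start. The other scaffold gene, Psmd2, had no peak in library 1 and 5.79 and 5.77 in libraries 2 and 3, over a RefSeq start inside its outer end. Psmd4, a ubiquitin receptor, had 4.50, 8.04 and 6.49.

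The ATPase genes had means from 5.82 to 9.05, beside a middle range of 5.77 to 9.47 over all occupied protein-coding genes. Psmc4 was highest with 9.37, 7.87 and 9.91 in libraries 1, 2 and 3. Psmc1 was lowest with 5.54, 5.38 and 6.55, below Psmc4 in every library. Psmc6 had 6.496, 9.04 and 8.002, and Psmc5 had 8.62, 5.15 and 9.27. Psmc3 had 6.59, 6.68 and 5.75. Psmc6, Psmc5, Psmc2 and Psmc3 lay between Psmc4 and Psmc1 by their means, and the ranges of neighbours in that order overlapped. Psmc2 had a second region over its inner RefSeq start, with 6.06, 3.58 and 5.69 beside 5.32, 8.10 and 7.54 over its outer start, so that the order of its starts differed between libraries.

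Lid genes were occupied in 7 of 8 cases (87.5%), beside 45.2% of all protein-coding genes. Psmd12, a lid scaffold, had 13.3, 12.99 and 17.1 in libraries 1, 2 and 3, with pileups of 40, 54 and 97 fragments. Its region (chr11:107479220-107479919) had a mean of 14.5 ± 2.30 (SD, n = 3), above 98.1% of occupied genes. Psmd7, the partner of the deubiquitinase, had 10.4, 8.75 and 10.4, and the scaffold Psmd3 had 8.84, 11.3 and 8.60. Every library placed Psmd12 above both. Psmd14, the deubiquitinase itself, had 6.29, 6.23 and 7.13. Psmd11 had 6.93, 8.23 and 8.16, and Psmd13 had 6.34, 6.46 and 8.95. Psmd8 was lowest by its mean, with 4.35, 6.56 and 5.02. Psmd6 had a peak only in library 1, at 4.84 and 9 fragments, 24 bp from its start.

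Taking the libraries together, the medians of the classes were close. The per-library median fold enrichment over occupied members averaged 8.15 ± 0.18 for the constitutive core, 7.42 ± 0.77 for the base and 7.92 ± 0.88 for the lid (SD, n = 3 libraries), beside 7.40 ± 0.26 for all occupied protein-coding genes. The core exceeded the base in each library by medians of 8.33 against 6.54, 8.14 against 7.96 and 7.97 against 7.77, and the lid lay above the core in libraries 2 (8.23) and 3 (8.60) and below it in library 1 (6.93). The 3 interferon-induced genes, each taken by its strongest end region, had per-library medians of 5.85, 6.32 and 6.77.

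Assembly chaperones of the base were occupied in 2 of 3 cases, beside 45.2% of all protein-coding genes. Psmd9 had 7.17, 9.38 and 8.21 in libraries 1, 2 and 3, and Psmd5 had 8.83, 7.57 and 6.74. Psmd10, also known as gankyrin, had no peak at either end, and its window held the ETS core, the NF-Y box and 11 CpGs. Psmd10 is X-linked, and 18.5% of X-linked protein-coding genes were occupied, beside 47% of autosomal ones.

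Several members shared the region at their end with a neighbour. This was so for 10 of the 30 occupied members (33.3%), beside 31% of all occupied protein-coding genes. Psma4 and Psmb9 are given above, and Psmb8 shared the region at its start with Tap1. The others were Psma2 with Mrpl32, Psma7 with Ss18l1, Psmb3 with Pcgf2, Psmc2 with Dnajc2, Psmc5 with Ftsj3, Psmd8 with Catsperg1 and Psmd13 with Sirt3. Peak lists do not tell which gene of such a pair a region belongs to.

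Farther regions were counted beyond 1 kb and within 20 kb of an end. Of the 39 members, 28 (71.8%) had at least 1 reproducible region there, beside 49.7% of all protein-coding genes, and the mean was 1.38 per member against 1.06 per protein-coding gene. These were 53 regions in all, of which 28 (52.8%) lay within 1 kb of an end of another protein-coding gene and 5 lay inside the member itself. The same shares were not taken over the farther regions of all protein-coding genes. Among the members, Psmb3 had the most farther regions, with 5. The strongest outside a member were beside Psmc3, with 14.05, 15.4 and 14.7 in libraries 1, 2 and 3 at 10431 bp past its higher-coordinate end, a region at an end of Slc39a13, and with 13.01, 14.1 and 11.5 at 10624 bp below its lower-coordinate end, at no protein-coding end. Both exceeded the region at the Psmc3 end (6.59, 6.68 and 5.75) in every library. Nearest to a member's end outside the gene were regions 1875 bp past the finish of Psmc6, at an end of Styx, with 9.505, 11.0 and 9.84, and 1943 bp past the finish of Psma7, with 3.92, 5.81 and 4.45. No farther region was found for 11 members.

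Other genes of the pathway were occupied at a like rate. Of 34 listed genes 33 were matched, and 26 (78.8%) were occupied, beside 45.2% of all protein-coding genes. The activator genes Psme1 to Psme4 were occupied in 4 of 4 cases, led by Psme2 with 9.27, 11.5 and 10.01 in libraries 1, 2 and 3. The inhibitor gene Psmf1 had no peak at either end. Among assembly chaperones of the core, Psmg2 had a mean of 12.7 ± 1.18 (SD, n = 3), Psmg1 had 8.94, 8.49 and 10.6 and Pomp had 8.68, 9.93 and 7.06, while Psmg3 had no peak at either end. Of the regulators of subunit genes, Nfe2l1, which raises proteasome gene expression when the proteasome is inhibited, had 12.2, 11.6 and 14.2. Ngly1, the glycanase that Nfe2l1 needs, had 9.51, 12.3 and 12.1, and Nfe2l2 had 11.95, 9.98 and 10.4. Every library placed Nfe2l1 above the median of the occupied subunit genes. Usp14, a deubiquitinase of the cap, had 10.3, 11.8 and 14.7.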

How the data were processed

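CUT&Tag peaks of Flag-tagged Bcl11a were analysed in 3 libraries of LSK cells. Per the submitters' processing notes, Bowtie2, SAMtools and MACS2 were used with mm10, with versions not stated in those notes. Each deposited file holds the peaks of a library, with fold enrichment (a ratio), −log10 p, −log10 q and a score, 10 times the −log10 q and not used. The lowest deposited −log10 q was 1.30 to 1.31. Pileup and background were solved from the deposited fold and −log10 p, and 100% of pileups came out whole within 0.05.

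Peaks overlapping by at least 1 bp were joined. Gene ends came from RefSeq (GRCm38.p6), and starts and promoter windows from its promoter table. Joining and solving were tested on simulated data. With 1 group there was no comparison of conditions and no test was run. Members and lists were chosen with earlier results of these data known. All members are named or counted; values per library are given for the interferon-induced genes and their counterparts, the 10 strongest and 3 weakest occupied members, and those with partial, missing, double, shared or farther regions. Python 3.11.15, pandas 2.3.3 and scipy 1.17.1 were used. Window, threshold, overlap, library and measure were varied.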

Additional observations from a re-analysis of the deposited data

How the results depend on the processing

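Counts of occupied members stayed within 1.5 times the reported values with a 250 bp or 3 kb window, with summits in place of edges, with −log10 q of at least 5, with 50% reciprocal overlap and with at least 2 libraries. Across these the number of occupied members was 26 to 33 of 39, beside 38.1% to 51.6% of all protein-coding genes. With the 10000 strongest peaks of each library, 11 of 39 were occupied (28.2%, beside 20.6% of all protein-coding genes), and 18 farther regions were left. This setting keeps fewer peaks by construction. Of the parts, 5 of 14 core, 4 of 8 lid, 1 of 9 base and 1 of 3 interferon-induced genes were then occupied. The base, with 8 of 9 by the main rule, thus had the lowest share of core, lid and base, below that of all protein-coding genes. Leaving out a library gave 29 to 32 occupied members, beside 46.2% to 48.8% of all protein-coding genes. Of the parts, 10 to 11 core, 7 lid, 8 to 9 base and 2 to 3 interferon-induced genes were then occupied. The log2 difference of medians was -0.02 to 0.08, and there were 57 to 60 farther regions. The difference of medians was -0.38 with pileup over background and -0.26 with −log10 q as the measure, and the cause was not tested. Farther regions numbered 27 within 10 kb and 118 within 50 kb. RefSeq starts alone gave 26 occupied members of the 32 with a start given, beside 46.9% of protein-coding genes with a start given. Dropping Psmb10 gave 29 (76.3%), beside 45.2% of all protein-coding genes. Both settings were chosen after seeing the data. No paired analysis was possible because there is a single group. The difference of medians was below 0 with −log10 q of at least 5 (-0.05), with 50% reciprocal overlap (-0.02) and with the 10000 strongest peaks (-0.01). Peaks at Psmb6, Psmb7 and Psmd6 had summits of 8 to 17 fragments, and why a peak was missing from a library there was not tested; the Psmd6 peak was in library 1, which had the lowest background, and not in libraries 2 and 3.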
